A study of Mus musculus with 32 samples.

Results

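The genes described are 10 transcripts of periportal hepatocytes and of ammonia removal, namely Cps1, Ass1, Asl, Arg1, Otc, Nags, Hal, Sds, Gls2 and Cyp2f2. They were taken by symbol from the 55487 gene rows of a whole-liver mRNA-seq table, and all 10 were found and passed the filter on low counts, among 14903 genes tested. The livers came from FAAH S268D mice on the NASH-AA diet, FAAH S268D mice on the NASH diet, WT mice on the NASH-AA diet and WT mice on the NASH diet, with 8 libraries in each of the 4 groups. In FAAH S268D mice the enzyme that degrades N-acyl taurines and other fatty acid amides, fatty acid amide hydrolase, carries an exchanged amino acid. All mice had been on an HFFC diet for 28 weeks, and it was given with ARA (NASH-AA) or without it (NASH), so that no group received a plain diet. Sex, age and strain are not given in the labels, nor is how the allele was made. Whether each replicate is its own animal is not stated in the labels, and the p-values reflect the scatter of these libraries, which may be technical.

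Blood enters the liver lobule at the portal tract, and hepatocytes there are specialised for amino acid breakdown and urea synthesis, while hepatocytes around the central vein capture the remaining ammonia as glutamine. In the urea cycle, carbamoyl phosphate synthetase (Cps1), switched on by the product of N-acetylglutamate synthase (Nags), and ornithine transcarbamylase (Otc) work in mitochondria, and argininosuccinate synthetase (Ass1), argininosuccinate lyase (Asl) and arginase (Arg1) in the cytosol. Hal, Sds and Gls2 release ammonia from histidine, from serine and threonine, and from glutamine. Cyp2f2 encodes a cytochrome P450 that marks periportal hepatocytes in mouse liver and is also known from lung club cells.

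On GRCm38, all 10 are protein-coding genes on autosomes other than Otc, which is on X. Cps1 lies at chr1:67123026-67231259, Ass1 at chr2:31470207-31520672, Asl at chr5:130011258-130029247, Arg1 at chr10:24915221-24927484 and Otc at chrX:10252305-10321024. Nags lies at chr11:102145513-102149477, Hal at chr10:93488768-93519304, Sds at chr5:120476526-120483932, Gls2 at chr10:128194457-128210004 and Cyp2f2 at chr7:27119909-27133660. Promoter sequence was available for 5 of the 10 genes (Ass1, Otc, Nags, Hal and Cyp2f2) in RefSeq on GRCm38.p6, as 250 bases before to 50 bases after the start. The promoters of Hal and Cyp2f2, the genes with the largest fold changes reported below, and of Ass1 and Otc, a cytosolic and a mitochondrial step of the urea cycle, are printed in lower case 5′ to 3′ with motif matches in capitals.
Hal (chr10:93488518-93488817, plus strand): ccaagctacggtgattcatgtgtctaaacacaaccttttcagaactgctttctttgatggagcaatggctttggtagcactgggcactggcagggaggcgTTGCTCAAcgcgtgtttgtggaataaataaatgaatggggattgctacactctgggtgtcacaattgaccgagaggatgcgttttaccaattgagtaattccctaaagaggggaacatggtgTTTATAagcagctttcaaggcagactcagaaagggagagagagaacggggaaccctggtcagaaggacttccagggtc
Cyp2f2 (chr7:27119705-27120004, plus strand): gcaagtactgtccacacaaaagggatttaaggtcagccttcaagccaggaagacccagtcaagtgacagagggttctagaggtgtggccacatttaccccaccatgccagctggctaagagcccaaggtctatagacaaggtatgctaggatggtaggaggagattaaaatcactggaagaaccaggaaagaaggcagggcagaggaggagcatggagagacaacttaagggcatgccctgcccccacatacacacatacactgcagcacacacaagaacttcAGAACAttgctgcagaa
Ass1 (chr2:31470020-31470319, plus strand): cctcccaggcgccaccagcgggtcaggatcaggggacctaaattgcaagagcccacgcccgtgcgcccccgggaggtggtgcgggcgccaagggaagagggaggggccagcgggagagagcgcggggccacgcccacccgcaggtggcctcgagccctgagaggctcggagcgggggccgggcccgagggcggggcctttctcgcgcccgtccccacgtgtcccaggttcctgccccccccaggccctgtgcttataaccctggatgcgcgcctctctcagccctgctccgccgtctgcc
Otc (chrX:10252055-10252354, plus strand): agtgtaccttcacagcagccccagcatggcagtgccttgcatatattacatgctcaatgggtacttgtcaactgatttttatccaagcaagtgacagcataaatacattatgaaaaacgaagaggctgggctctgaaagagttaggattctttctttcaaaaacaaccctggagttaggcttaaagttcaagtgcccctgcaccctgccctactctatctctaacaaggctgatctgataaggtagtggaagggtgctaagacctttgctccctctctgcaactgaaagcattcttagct
Both strands were searched for TATAAA (the TATA box), TTGCNNAA (C/EBP), TGACGTCA and its shorter form TGACG (CREB), CAAAGTCCA (HNF4) and TGTTCT (a glucocorticoid receptor motif). TGACG lies within TGACGTCA, so those 2 overlap. Hal held TTGCNNAA 150 bases before the start (-150) and TATAAA, read on the minus strand, at -28. Cyp2f2 held TGTTCT on the minus strand at position 34 after the start, and Nags (not printed) held TGACG on the minus strand at position 32. Ass1 and Otc held none of these letter strings in the window. Among all 32851 promoters of that length, 13.6% held TATAAA, 10.8% TTGCNNAA, 1.79% TGACGTCA, 20.8% TGACG, 0.475% CAAAGTCCA and 19% TGTTCT. These matches describe letters only.

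Libraries held between 3851626 counts (FAAH S268D NASH replicate 1, the only one under 14743252) and 34370178 counts, with a median of 22896702. The lowest single count of any of the 10 genes was 203, for Nags in that shallow library. Values are normalised CPM, that is library-scaled counts after TMM, and fold changes are limma-voom log2 values ± SE with Benjamini-Hochberg adjusted p over all genes. The 7 hepatocyte markers summed to between 5.298e+04 and 9.614e+04 CPM over the 32 libraries. Cyp2f2 is also a gene of club cells of the lung; of 3 lung epithelial markers, Scgb3a2 and Sftpc were at 0 in all 32 libraries and Scgb1a1 in all but 1 (0.03526 CPM in FAAH S268D NASH-AA replicate 3). In whole liver, fewer cells of a type and less RNA per cell cannot be told apart.

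Per kilobase of exon, Ass1 was the most abundant of the 10 transcripts and Nags the least. Over the 32 libraries Ass1 averaged 926.5 ± 238.4 CPM per kb (SD), followed by Cyp2f2 at 508 ± 134.1, Cps1 at 368.2 ± 138.3 and Arg1 at 353.2 ± 68.82. A second tier held Otc at 75.88 ± 16.65 CPM per kb, Sds at 73.68 ± 22.39, Gls2 at 66.5 ± 20.79 and Asl at 62.08 ± 18.73. Hal averaged 40.56 ± 16.06 and Nags 17.7 ± 2.396 CPM per kb. Cyp2f2, Cps1 and Arg1 did not differ beyond these spreads from one to the next, nor did Otc, Sds, Gls2, Asl and Hal. The steps from Ass1 to Cyp2f2, from Arg1 to Otc and from Hal to Nags were larger than the spread. Lengths were the union of annotated exons, so a gene annotated with long retained sequence, such as Asl with 4831 bases, reads lower on this scale. Ass1 shares 43.1% of its short sequence words with the processed pseudogene Gm5424, which took 60807 counts in all against 1619666 for Ass1. How reads matching both were counted is not given in the sources used here, so the Ass1 level is uncertain by an unknown amount.

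**Figure D1:**
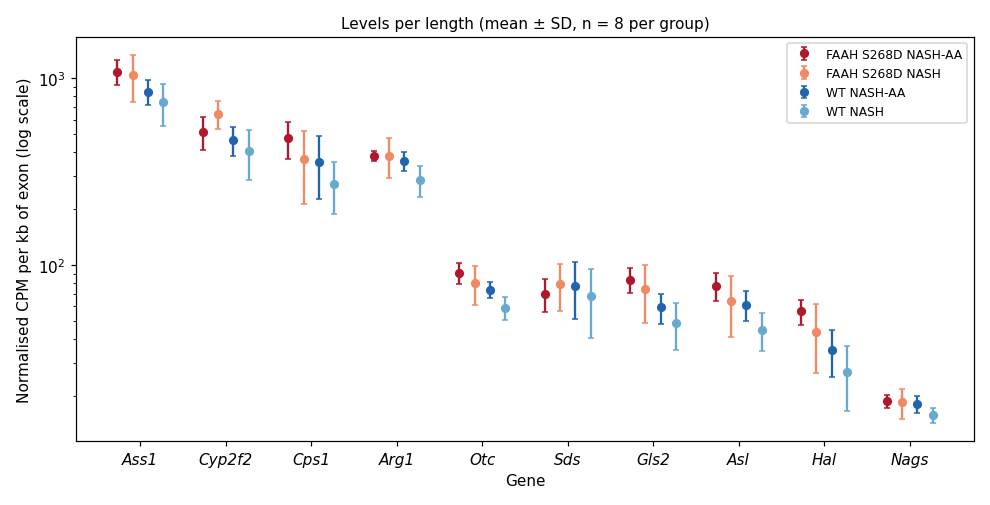
Mean normalised CPM per kb of exon (log scale, y axis; error bars are SD, n = 8 per group) for the 10 genes in order of their overall level (x axis), with the 4 groups side by side. Ass1 stands highest and Nags lowest, and all 10 genes have their lowest mean in the WT NASH group, at the right of each set.

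The genotype comparison on the NASH diet asked what the FAAH S268D substitution goes with when no ARA is added. All 10 genes had positive fold changes, and 6 of them rose in FAAH S268D past the threshold, namely Cyp2f2, Hal, Gls2, Ass1, Arg1 and Otc. Over all genes tested, 9.19% passed in this comparison and 2.89% passed as higher. The median log2 fold change of the 10 genes was 0.448, against 0.001 over all genes. The 4 that did not pass were Cps1, Asl, Nags and Sds.

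Among the mitochondrial steps, Otc ranged from 236.3 to 454.4 CPM with a median of 331.9 in FAAH S268D NASH, against 211.2 to 313.4 with a median of 237.3 in WT NASH. All but replicate 5 of the FAAH S268D libraries lay above the WT median, and 4 lay above the highest WT library. Its log2 fold change was 0.43 ± 0.11 (adjusted p = 0.0157). Cps1, the entry enzyme, ran from 1002 to 3229 CPM with a median of 1888 in FAAH S268D NASH, against 1024 to 2419 with a median of 1415 in WT NASH. The groups overlapped, with 6 of 8 FAAH S268D libraries above the WT median, 3 above every WT library, and replicates 1 and 5 lowest of the FAAH S268D group (0.34 ± 0.24, adjusted p = 0.377). Nags spanned 35.9 to 63.33 CPM in FAAH S268D NASH and 39.06 to 51.95 CPM in WT NASH (0.20 ± 0.09, adjusted p = 0.164).

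Of the cytosolic steps, Ass1 ran from 1516 to 3555 CPM with a median of 2347 in FAAH S268D NASH, against 1260 to 2618 with a median of 1631 in WT NASH (0.47 ± 0.15, adjusted p = 0.0441). Replicates 2, 3 and 4 of FAAH S268D NASH lay above all WT libraries. Arg1, which splits arginine into urea and ornithine, was at 614.6 to 1170 CPM with a median of 838.5 in FAAH S268D NASH and at 440.5 to 816.5 with a median of 621.8 in WT NASH (0.43 ± 0.12, adjusted p = 0.0191). There, 4 FAAH S268D libraries exceeded every WT library. Asl ranged from 176 to 471 CPM with a median of 280.7 in FAAH S268D NASH, against 147.4 to 304.8 with a median of 204.9 in WT NASH. Its fold change of 0.47 ± 0.17 was as large as that of Ass1 but did not pass (adjusted p = 0.0756).

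Among the ammonia-releasing enzymes, Hal moved most: it spanned 117.2 to 437.7 CPM with a median of 234.5 in FAAH S268D NASH, against 88.61 to 242.6 with a median of 129.3 in WT NASH (0.70 ± 0.22, adjusted p = 0.0387). Gls2 followed, at 139.8 to 369.2 CPM with a median of 258.8 in FAAH S268D NASH and 117.7 to 252.9 with a median of 157.5 in WT NASH (0.58 ± 0.17, adjusted p = 0.033). For both genes 7 of 8 FAAH S268D libraries lay above the WT median, and replicate 5 was the one below it. Sds spanned 68.21 to 181 CPM in FAAH S268D NASH, inside the 65.91 to 201.3 CPM of WT NASH (0.26 ± 0.21, adjusted p = 0.47). Exons of Sds overlap those of Plbd2 on the other strand by 360 bases, and the strand used in counting is not given in the sources used here, so reads of the pair cannot be told apart there. Cyp2f2 had the smallest adjusted p of the 10 genes: 1026 to 1715 CPM with a median of 1304 in FAAH S268D NASH, against 423.5 to 1183 with a median of 793 in WT NASH (0.73 ± 0.16, adjusted p = 0.00564). All 8 FAAH S268D libraries were above the WT median and 6 above the highest WT library.

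**Figure D2:**
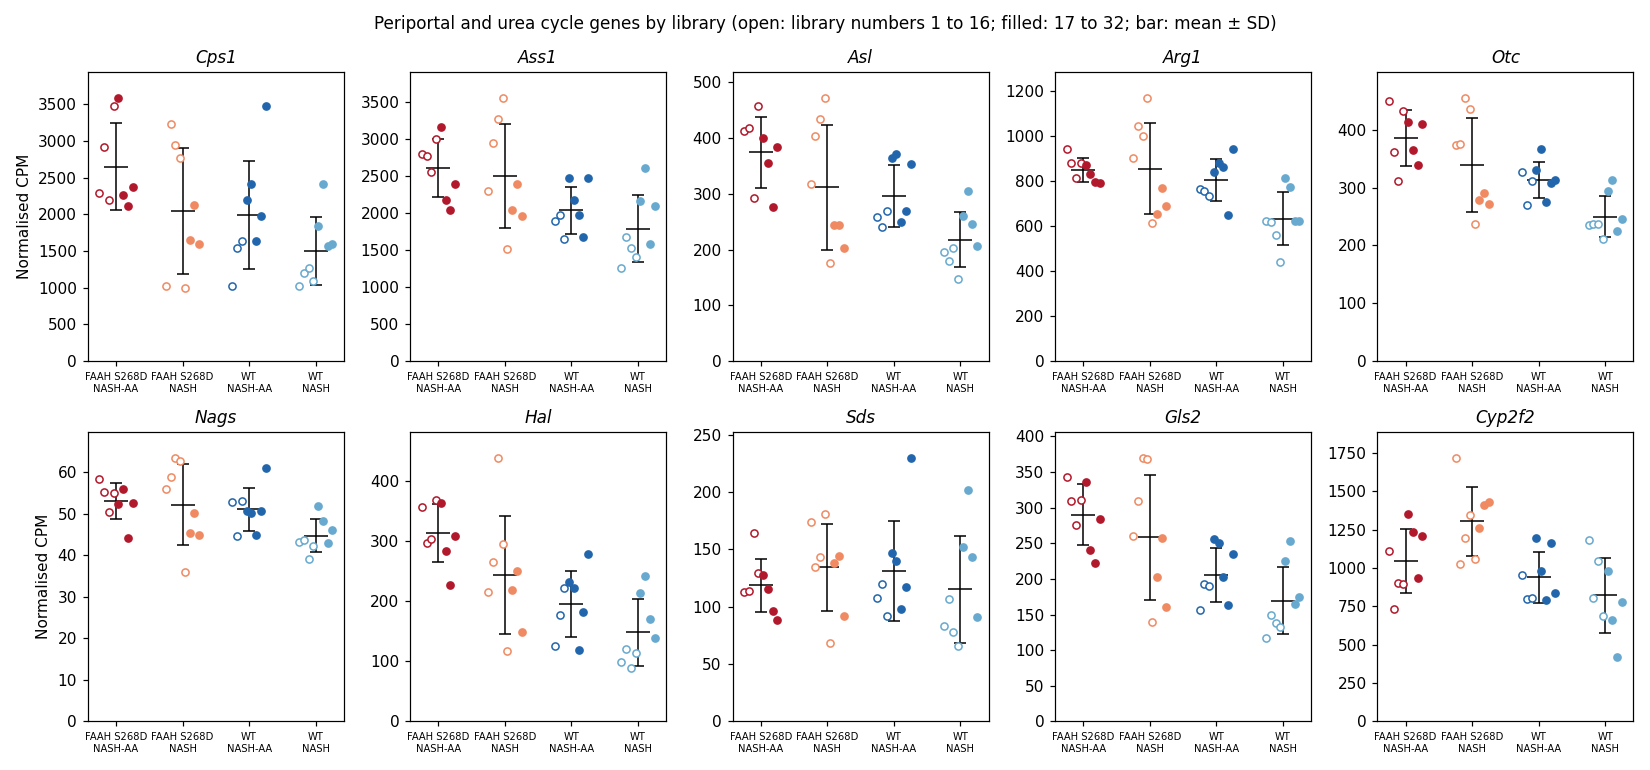
Normalised CPM of each of the 10 genes (y axis, from 0) in every library by group (x axis); open points are libraries numbered 1 to 16, filled points 17 to 32, and bars the mean ± SD (n = 8). In FAAH S268D NASH the high values of Ass1, Asl, Arg1 and Otc come from open points, while in WT NASH the open points lie low; Cyp2f2 does not follow this.

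The libraries carry running numbers, 1 to 16 and 17 to 32, and the genotype difference on NASH was unequal between those ranges. In numbers 1 to 16 (5 FAAH S268D and 4 WT libraries), 6 of the 10 genes and 5.88% of all genes passed, with log2 fold changes of 0.84 for Ass1, 0.93 for Asl, 0.76 for Arg1, 0.69 for Otc, 1.24 for Hal and 1.05 for Gls2. In numbers 17 to 32 (3 and 4 libraries), 0 of 10 passed by limma-voom, where 0.134% of all genes did, and the values were 0.03 for Ass1, -0.14 for Asl, -0.002 for Arg1, 0.06 for Otc, 0.10 for Hal and 0.001 for Gls2. Cyp2f2 went the other way, with 0.495 in the lower range and 1.003 in the upper. Tested as 1 difference between ranges, 0 of 10 genes passed by limma-voom with adjustment over all genes (adjusted p from 0.325 to 0.479), where 0% of all genes passed. An unadjusted p under 0.05 was found for 8 of the 10 and for 12.3% of all genes. Hal, for example, averaged 266.3 CPM in the FAAH S268D NASH libraries and 105 in the WT NASH libraries of the lower range, against 206.1 and 191.2 CPM in the upper range. What the numbers stand for is not given in the labels.

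**Figure D3:**
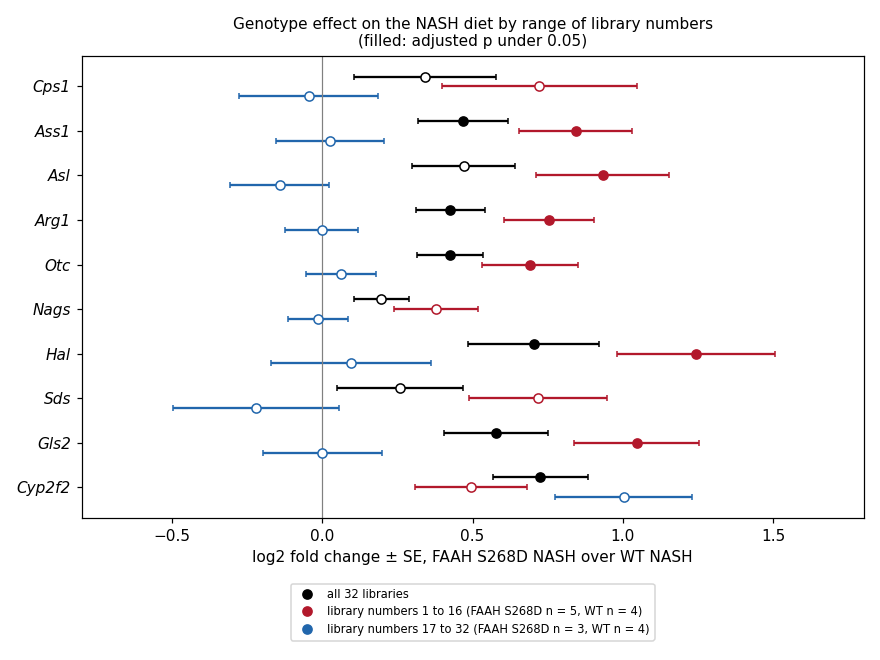
The log2 fold change ± SE of FAAH S268D NASH over WT NASH (x axis) for each gene (y axis), from all 32 libraries and from each range of library numbers alone; filled points passed the threshold. All genes other than Cyp2f2 lie at 0.379 or above in numbers 1 to 16 and at 0.097 or below in numbers 17 to 32.

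Single libraries also moved the count for genotype on NASH. Among the 10 genes it was 1 without FAAH S268D NASH replicate 4, 2 without replicate 2 and 3 without replicate 3. It was 2 without WT NASH replicate 4, and 3 each without WT NASH replicate 1, 2, 3 or 7. Over all genes it ran from 492 without FAAH S268D NASH replicate 4 to 2642 without WT NASH replicate 5. With every library it was 1369. Fitted on the 16 NASH libraries alone, 0 of 10 passed, and with total-count scaling, with no filter on low counts or with the replicate number as a block, 3 passed. Total-count scaling called 2411 of all genes, 163 of them higher, against 1369 and 431 with TMM. Over these alternatives the calls over all genes ran from 20, in library numbers 17 to 32 alone, to that 2411. The share of all genes in the fit of the 16 NASH libraries is not reported here. Its 0 of 10 therefore cannot be set beside all genes.

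Markers of several kinds of immune cell, but not of B and plasma cells, moved with these genes in the opposite direction. Of 4 B and plasma cell markers tested for genotype on NASH, 0 passed by limma-voom, and their median log2 fold change was 0.114. On the NASH diet, 11 of 14 monocyte and macrophage markers were lower in FAAH S268D past the threshold, and 3 of 7 hepatocyte markers were higher. The macrophage markers summed to 312.1 to 957.5 CPM in FAAH S268D NASH, against 498.3 to 1471 CPM in WT NASH, and none of the 14 was at 0 in all libraries. Within FAAH S268D NASH, replicates 2, 3 and 4 had the lowest sums (464.1, 462.8 and 312.1 CPM) and the highest Ass1 and Asl, while replicate 5 had the highest sum (957.5 CPM) and the lowest level of every one of the 10 genes other than Cyp2f2. WT NASH was mixed. Its replicate 6 had a sum of 1246 CPM, yet the highest Cps1, Ass1, Asl, Otc, Hal, Sds and Gls2 of that group. Its replicate 5 had the lowest sum (498.3 CPM) and the highest Arg1 and Nags. Lower in FAAH S268D on NASH past the threshold were also 3 of 6 T and NK cell markers (median log2 fold change -1.004), 2 of 3 neutrophil markers (-1.119), 1 of 5 Kupffer cell markers (Cd5l) and 1 of 8 stellate cell and fibroblast markers (Timp1). T and NK cell markers summed to 1.7 to 6.353 CPM in FAAH S268D NASH against 3.096 to 10.68 CPM in WT NASH, and neutrophil markers to 3.446 to 9.667 CPM against 5.351 to 21.1 CPM in WT NASH. The part of these cells in the result was not tested.

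Other genes of amino acid breakdown rose with them. Of 31 amino acid catabolism genes tested, 14 were higher in FAAH S268D on NASH and none lower, with a median log2 fold change of 0.332. Haao, of the kynurenine path of tryptophan, averaged 429.1 ± 107.1 CPM in FAAH S268D NASH and 291.7 ± 46.98 in WT NASH (0.54 ± 0.12, adjusted p = 0.00509). Kynu, of the same path, had a fold change of 0.40 ± 0.10 (adjusted p = 0.0145), and Ftcd, which acts below Hal in histidine breakdown, 0.28 ± 0.07 (adjusted p = 0.0168). Of 20 companions of the urea cycle, 3 rose and 1 fell: Mdh1, a malate dehydrogenase, by 0.43 ± 0.10, Slc38a3, a glutamine transporter, by 0.47 ± 0.14, Car5a, which supplies mitochondrial bicarbonate, by 0.51 ± 0.16, and Gpt2, a mitochondrial alanine transaminase, with -0.30 ± 0.10 (adjusted p = 0.0105, 0.0259, 0.0368 and 0.0464). Of 15 further periportal genes none rose and 1 fell, Ctsc (-0.56 ± 0.13, adjusted p = 0.00686), a lysosomal protease gene that immune cells also express. None of 14 pericentral genes passed by limma-voom, but all 14 fold changes were positive, with a median of 0.200. Of 18 regulators 1 rose, the glucagon receptor gene Gcgr (0.22 ± 0.07, adjusted p = 0.0469).

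On the NASH-AA diet, 0 of the 10 genes passed for genotype by limma-voom, where 0.658% of all genes did; limma-trend also called 0. An unadjusted p under 0.05 was found for 4 of the 10 and for 15.5% of all genes. Hal and Gls2 had fold changes close to those on NASH. Hal lay at 226.7 to 368.6 CPM with a median of 306.1 in FAAH S268D NASH-AA, against 118.7 to 279.2 with a median of 202.1 in WT NASH-AA, so 7 of 8 FAAH S268D libraries exceeded every WT library (0.73 ± 0.22, adjusted p = 0.135). Gls2 spanned 222.1 to 343.7 CPM with a median of 296.4 in FAAH S268D NASH-AA and 157.1 to 256.7 with a median of 197.7 in WT NASH-AA (0.50 ± 0.18, adjusted p = 0.181). Ass1 spanned 2049 to 3160 CPM in FAAH S268D NASH-AA and 1658 to 2480 CPM in WT NASH-AA, with 5 of 8 FAAH S268D libraries above every WT library (0.36 ± 0.15, adjusted p = 0.247). For Asl that number was also 5, for Otc 4, and for Cps1 1, with fold changes of 0.34 ± 0.18, 0.30 ± 0.11 and 0.48 ± 0.24. Every FAAH S268D library lay above the WT median for Cps1, Ass1, Asl, Hal and Gls2. Arg1 and Cyp2f2 had small values there, at 0.09 ± 0.12 (adjusted p = 0.775) and 0.15 ± 0.16 (adjusted p = 0.708), and Sds a negative one, at -0.11 ± 0.21 (adjusted p = 0.848). With the 16 NASH-AA libraries fitted alone, 3 of 10 passed, where 4.13% of all genes did: Hal (adjusted p = 0.0186), Gls2 (adjusted p = 0.0218) and Otc (adjusted p = 0.044). Of the macrophage markers, 0 of 14 passed on this diet by limma-voom, with sums of 304.9 to 601.8 CPM in FAAH S268D NASH-AA against 527.4 to 746.5 CPM in WT NASH-AA.

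Among the other periportal genes 1 of 15 passed on NASH-AA. Apoa4, an apolipoprotein gene, averaged 525.2 ± 178.4 CPM in FAAH S268D NASH-AA and 1466 ± 603.5 CPM in WT NASH-AA (-1.47 ± 0.36, adjusted p = 0.0453). The median fold change of the 10 genes described was 0.320 on this diet.

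**Figure D4:**
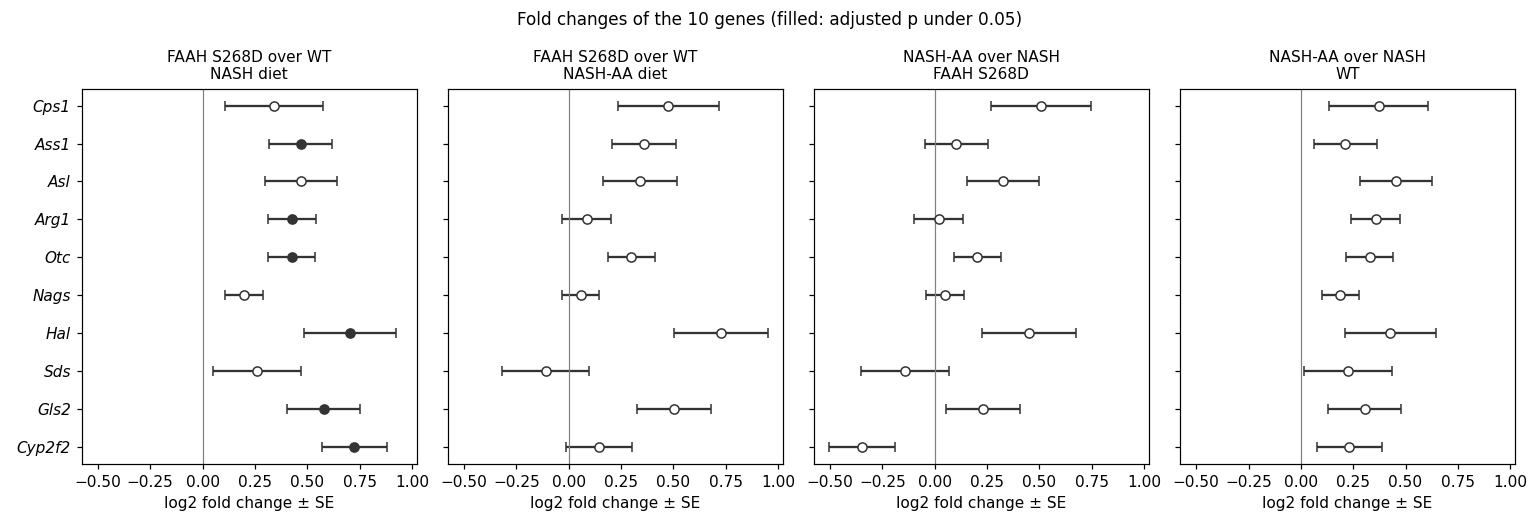
Log2 fold changes ± SE (x axis) of the 10 genes (y axis) for genotype on each diet and for diet in each genotype; filled points passed the threshold. Filled points occur for genotype on NASH alone, where 6 of 10 passed, and Cyp2f2 lies left of 0 for diet in FAAH S268D.

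Averaged over both diets, 7 of the 10 genes rose in FAAH S268D, where 17.2% of all genes passed and 6.9% passed as higher. They were Hal (0.72 ± 0.16, adjusted p = 0.00252), Gls2 (0.54 ± 0.12, adjusted p = 0.00373), Cyp2f2 (0.44 ± 0.11, adjusted p = 0.00765), Ass1 (0.41 ± 0.11, adjusted p = 0.00801), Asl (0.41 ± 0.12, adjusted p = 0.0218), Otc (0.36 ± 0.08, adjusted p = 0.00251) and Arg1 (0.26 ± 0.08, adjusted p = 0.03). In library numbers 17 to 32 alone, 0 of 10 passed, where 0.403% of all genes did, and in 1 to 16 alone 6, where 5.42% did. In the same average 12 of 14 macrophage markers, 4 of 6 T and NK cell markers, 3 of 3 neutrophil markers, 2 of 8 stellate cell and fibroblast markers and 1 of 5 Kupffer cell markers fell, and their part was not tested. Of 31 amino acid catabolism genes, 18 rose and none fell. Amdhd1 and Uroc1, which act below Hal in histidine breakdown, and Haao led them, with 0.46 ± 0.09, 0.30 ± 0.06 and 0.36 ± 0.08 (adjusted p = 0.000905, 0.00223 and 0.00352). Among 18 regulators, Klf15, a fasting- and glucocorticoid-responsive regulator of amino acid breakdown, Gcgr and Sirt3 rose, by 0.36 ± 0.09, 0.18 ± 0.05 and 0.20 ± 0.06.

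The diet comparisons asked what ARA goes with in each genotype. In WT, 0 of the 10 genes passed by limma-voom, where 4.41% of all genes did; limma-trend called 0. At an unadjusted p under 0.05 there were 4 of the 10 and 24.4% of all genes. All 10 fold changes were positive, with a median of 0.317. The smallest adjusted p was that of Arg1, at 650.2 to 944.1 CPM with a median of 803.7 in WT NASH-AA, against 440.5 to 816.5 with a median of 621.8 in WT NASH (0.36 ± 0.12, adjusted p = 0.0642). Each of the 8 WT NASH-AA libraries exceeded the WT NASH median for Arg1, Otc, Asl, Ass1 and Nags. Otc had 0.33 ± 0.11 (adjusted p = 0.0736) and Asl 0.46 ± 0.17 (adjusted p = 0.101). Fitted on the 16 WT libraries alone, 1 gene of the 10 and 7.31% of all genes passed, the 1 being Otc (adjusted p = 0.0293). With all 4 groups fitted, the count was 2 without FAAH S268D NASH replicate 5 or WT NASH replicate 5, and 1 without FAAH S268D NASH replicate 4. Over all genes, leaving out 1 library gave 26 to 2190 calls, against 657 with every library. Within library numbers 1 to 16 and 17 to 32, fitted apart, 0 of 10 passed by limma-voom, where 0% and 1.09% of all genes did.

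Other lists did have genes past the threshold for diet in WT. Of 14 pericentral genes 4 rose and none fell, among them Cyp1a2, a drug-metabolising cytochrome gene (0.93 ± 0.22, adjusted p = 0.0211), and Gulo, of vitamin C synthesis (0.35 ± 0.09, adjusted p = 0.0346). Of 31 amino acid catabolism genes 4 rose, among them Kmo and Tdo2, of tryptophan breakdown, by 0.39 ± 0.10 and 0.37 ± 0.10, and Prodh, of proline breakdown, by 0.62 ± 0.17. Of the 20 companions of the urea cycle 2 rose, Car5a by 0.57 ± 0.16 and Fh1, a fumarase gene, by 0.36 ± 0.10. Among 15 other periportal genes 1 fell, Cdh1 (-1.89 ± 0.39, adjusted p = 0.0175), at 7.468 ± 2.893 CPM in WT NASH-AA against 29.61 ± 14.19 CPM in WT NASH. Of the macrophage markers 2 of 14 fell for diet in WT (Itgam and Cd14), with sums of 527.4 to 746.5 CPM in WT NASH-AA against 498.3 to 1471 CPM in WT NASH, and of the cholangiocyte markers 2 of 7 fell (Tspan8 and Cldn4). Their part in these results was not tested.

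In FAAH S268D, 0 of the 10 genes passed for diet by limma-voom, where 0.0939% of all genes did; limma-trend called 0. At an unadjusted p under 0.05 there were 2 of the 10 and 12.4% of all genes. Those 2, Cps1 and Cyp2f2, pointed in opposite directions. Both fold changes were closest to zero without FAAH S268D NASH replicate 1, the shallowest library. Cps1 was then at 0.345, against 0.506 with every library, and Cyp2f2 at -0.274, against -0.347. Cps1 spanned 2118 to 3581 CPM with a median of 2330 in FAAH S268D NASH-AA, against 1002 to 3229 with a median of 1888 in FAAH S268D NASH (0.51 ± 0.24, adjusted p = 0.385). Cyp2f2 spanned 736.4 to 1351 CPM with a median of 1023 in FAAH S268D NASH-AA, against 1026 to 1715 with a median of 1304 in FAAH S268D NASH (-0.35 ± 0.16, adjusted p = 0.363). Arg1 had nearly equal medians, at 851.9 CPM in FAAH S268D NASH-AA and 838.5 CPM in FAAH S268D NASH, but a narrower range on NASH-AA (790.5 to 942.1 CPM) than on NASH (614.6 to 1170 CPM).

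As an average over both genotypes, 2 of the 10 genes rose on NASH-AA, where 10.9% of all genes passed and 4.62% passed as higher: Otc (0.27 ± 0.08, adjusted p = 0.0293) and Asl (0.39 ± 0.12, adjusted p = 0.0367). Cps1 and Hal had larger fold changes, of 0.44 ± 0.17 and 0.44 ± 0.16, and did not pass (adjusted p = 0.0824 and 0.0637). The count was 0 without FAAH S268D NASH-AA replicate 1 or 5, FAAH S268D NASH replicate 5, 6 or 8, WT NASH-AA replicate 5 or WT NASH replicate 4. It was 1 without FAAH S268D NASH-AA replicate 2, 4 or 8, FAAH S268D NASH replicate 7, WT NASH-AA replicate 4 or 8 or WT NASH replicate 2 or 3, and 4 without FAAH S268D NASH replicate 3 or 4 or WT NASH-AA replicate 1. In library numbers 1 to 16 alone it was 0, where 0.0872% of all genes passed, and in 17 to 32 alone 2, where 13.4% did. Over all genes, leaving out 1 library gave 1003 to 2704 calls, against 1624 with every library. In this average 8 of 14 macrophage markers fell and 3 of 7 hepatocyte markers rose; their part in the result was not tested.

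Of the pericentral genes, 9 of 14 were higher on NASH-AA on average and none lower. Slc1a2, a glutamate transporter gene, rose by 0.54 ± 0.11 (adjusted p = 0.00308) and Cyp1a2 by 0.76 ± 0.15 (adjusted p = 0.00355). Amino acid catabolism genes had 8 of 31 higher, led by Tdo2, Prodh and Kmo at 0.31 ± 0.07, 0.51 ± 0.12 and 0.30 ± 0.07. Of the 20 companions 3 rose, Car5a, Fh1 and Slc38a2, by 0.41 ± 0.11, 0.25 ± 0.07 and 0.26 ± 0.08. The 15 other periportal genes were split, with 4 higher and 4 lower. Apoa4 fell by 1.78 ± 0.26 on the log2 scale (adjusted p = 0.000705), Cdh1, the E-cadherin gene, by 1.68 ± 0.29 (adjusted p = 0.00134), and Etnppl, which breaks down phosphoethanolamine, rose by 0.65 ± 0.15 (adjusted p = 0.00724). Bile duct cells also express Cdh1, and 4 of 7 cholangiocyte markers fell in the same average; their part in the result was not tested.

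No gene of the 10 showed a genotype-by-diet interaction past the threshold by limma-voom, and 0% of all genes did; limma-trend called 0 of the 10. At an unadjusted p under 0.05 there were 2 of the 10 and 4.21% of all genes. The 2 were Cyp2f2 (-0.58 ± 0.22, adjusted p = 0.906) and Arg1 (-0.34 ± 0.17, adjusted p = 0.906). Cyp2f2 averaged 1047 ± 210.4 CPM in FAAH S268D NASH-AA, 1306 ± 224.2 in FAAH S268D NASH, 940.2 ± 164.6 in WT NASH-AA and 821.8 ± 242.1 in WT NASH (SD, n = 8 each). The other comparisons share groups, so their values are not independent of each other.

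Within groups, 9 of the 10 genes varied together, with weaker correlations for Cyp2f2. After each gene's group mean was taken off its log2 CPM, all 36 pairs without Cyp2f2 were positively correlated over the 32 libraries, with Pearson's r from 0.527 to 0.939. The closest pair was Ass1 and Gls2 (Pearson's r 0.939 and Spearman's rho 0.938). Each had permutation p = 1e-05, the smallest that 100000 permutations within groups can give, and adjusted p = 2e-05 over 45 pairs. Without the 2 libraries farthest from the median deviation of Ass1, Pearson's r was 0.917. All 36 pairs passed after adjustment over the 45. With library ranges also taken off, r ran from 0.496 to 0.914. It ran from 0.451 to 0.917 without the 2 libraries farthest from the median deviation of the pair's first gene. The first gene is the earlier of the 2 in the list of 10, and libraries far out on the second gene alone stayed in. The 9 pairs with Cyp2f2 had r from -0.172 to 0.211 and 0 passed by the permutation test. With library ranges also taken off, their r ran from -0.118 (Cps1) to 0.452 (Otc), and 8 of the 9 were above 0. The points share library, depth and cell composition, so these correlations are a description.

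**Figure D5:**
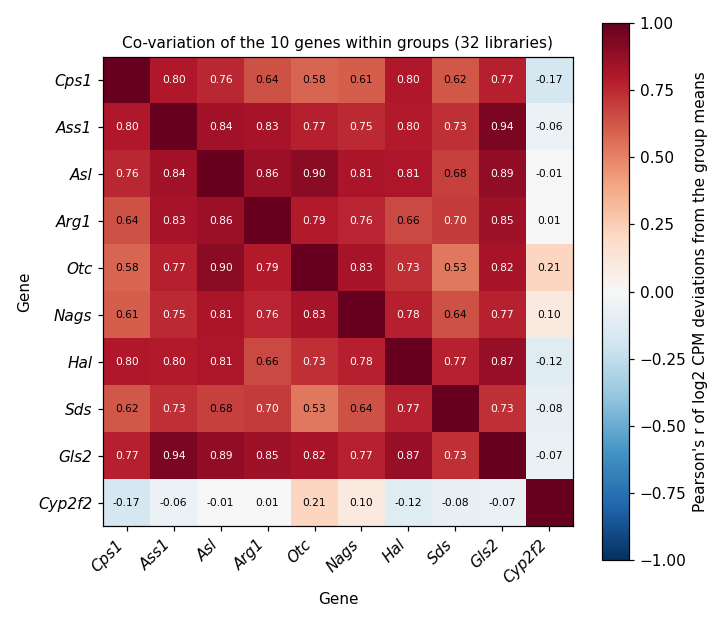
Pearson's r between the log2 CPM deviations of each pair of the 10 genes (both axes) from their group means, over 32 libraries; red is positive and blue negative. The 9 genes other than Cyp2f2 form a block between 0.527 and 0.939, and the Cyp2f2 row lies between -0.172 and 0.211.

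Spread within groups was widest for Cps1, with an SD of 0.493 on the log2 scale, then Hal (0.463) and Sds (0.442), and narrowest for Nags (0.182), against a median of 0.245 over all genes tested. Among the 5 genes that followed the mean deviation of the 10 most closely were Hpd (r = 0.925), which acts in tyrosine breakdown, Cth (0.916), of cysteine synthesis, Serpina1d (0.902) and Mthfd1 (0.900), of folate metabolism, as a description over 32 libraries. Among the 5 closest to Cps1 alone were Aass (0.902), of lysine breakdown, Rnf6 (0.876), Mug1 (0.866) and Lgr4 (0.863). Serpina1d and Mug1 belong to families of close copies, between which counting may have divided reads.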

How the data were processed

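Poly(A) mRNA-seq libraries of whole liver were made with a Tecan kit, per the labels' protocols, and per the submitters' processing notes reads went through STAR 2.7.10, Trim Galore 0.6.7 and UMI-tools 1.1.2 (order not stated), with the GRCm38 build. Neither the counting tool nor its strand setting is named in the sources used here. The authors deposited unscaled estimated counts for each gene, in which many cells had been altered as text, as a spreadsheet does with decimal points. Of 1775584 cells, 52450 did not read as a plain number and were turned back by fixed rules: 46772 with several points, 3782 clock times and 1896 day fractions. A further 155716 with 1 point before 3 digits were read as they stand, and 4450 had the form of hours and minutes. For 0.208% of cells there were 2 possible originals, none of them (0) among the 320 cells of the 10 genes, 117 of which carried grouping marks. No column (0) belonged to other samples. The unit was therefore recorded as other than counts.

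The test was limma-voom (limma 3.58.1, R 4.3.3) on rounded values, with TMM factors and a prior count of 0.5. A gene was tested if at least 8 libraries reached the CPM that 10 counts give at median depth, and its total was at least 15 counts. One mean was fitted per group over 32 libraries, in 7 contrasts, with adjusted p under 0.05 as the threshold. The fit was tested on simulated data. Alternatives are in the closing section; the test of the difference between library ranges was added after seeing the data. Permutations, summaries and figures used Python 3.11.15 with numpy 2.4.6, scipy 1.17.1, pandas 2.3.3 and matplotlib 3.10.9. Exon lengths, overlaps and close copies came from GENCODE on GRCm38. The members and lists were chosen with earlier results of these data known. All 10 genes are described. From each other list, at most 3 genes per contrast are named, those past the threshold with the smallest p, and 5 genes each are named as most like the mean of the 10 and most like Cps1. Some genes that this rule names are not reported here. One amino acid gene, Tdh, did not pass the filter and 1 hepatocyte symbol was not matched.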

Additional observations from a re-analysis of the deposited data

Results flagged for a closer look

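Sds in WT NASH-AA replicate 8 stood at 229.2 CPM, far from the other 7 libraries of its group, which lay between 91.64 and 146.8 CPM. The gap to the nearest of them was 0.599 of the group's range. Of 40 groups of 8 looked at (10 genes in 4 groups) this was the only 1, and chance flags about 1 in 20.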

How the results depend on the processing

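Of 880 single-gene values under the alternatives other than leaving out 1 library, 787 kept their direction and their side of the threshold, 43 kept the direction but no longer passed, 20 kept it and newly passed, and 30 changed sign; of those 30, 3 had passed with all libraries and 0 passed after the change. The cause was not tested. For genotype on NASH the count of 6 was 3 with total count only, with no filter and with the replicate block, 2 without the 4 libraries numbered replicate 1, 0 in library numbers 17 to 32 and 0 with the 2 groups fitted alone. The share of all genes in that last fit is not reported here. The count for genotype on NASH-AA (0) was 3 with 2 groups alone and 2 with sample quality weights. For diet in WT (0) it was 1 and 5, and for diet in FAAH S268D (0) 2 with quality weights. The average diet count of 2 was 1 with no filter and 1 with the replicate block, 0 in library numbers 1 to 16, 0 without the 4 replicate 1 libraries and 7 with quality weights. Quality weights also raised the calls over all genes. For genotype on NASH-AA they gave 756, against 98 without them. For diet in WT they gave 3757, against 657, and for diet in FAAH S268D 1060, against 14. For average diet they gave 5088, against 1624. The average genotype count of 7 was 0 in library numbers 17 to 32. Leaving out 1 library at a time gave 1 to 8 genes for genotype on NASH, 0 to 0 on NASH-AA, 0 to 2 for diet in WT, 0 to 0 in FAAH S268D, 0 to 4 for average diet, 6 to 9 for average genotype and 0 to 0 for the interaction. Over all genes the same fits gave, in that order, 492 to 2642, 66 to 187, 26 to 2190 and 6 to 365. For the averages and the interaction they gave 1003 to 2704, 1921 to 3319 and 0 to 0.

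Values that changed sign in library numbers 17 to 32 alone were, for genotype on NASH, Cps1 -0.045, Asl -0.141, Arg1 -0.002, Nags -0.014 and Sds -0.220; on NASH-AA, Arg1 -0.014 and Nags -0.000; for diet in WT, Sds -0.021; for the interaction, Ass1 0.148, Asl 0.280, Otc 0.199, Nags 0.014 and Gls2 0.283; for average diet, Sds -0.109 and Cyp2f2 0.143; and for average genotype, Asl -0.001, Arg1 -0.008, Nags -0.007 and Sds -0.308. In numbers 1 to 16 alone they were Cyp2f2 -0.089 for diet in WT, Arg1 -0.079 for diet in FAAH S268D, Sds 0.275 for genotype on NASH-AA and Hal -0.286 for the interaction. Total count only gave Gls2 0.033 for the interaction, Sds -0.025 for average diet and Sds -0.026 for average genotype. Without the 4 replicate 1 libraries, the interaction was -0.052 for Cps1 and -0.033 for Hal, and average diet 0.005 for Cyp2f2; quality weights gave Hal -0.021 for the interaction.

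Leaving out 1 library also turned the sign of Arg1 (-0.043 to 0.081) and Nags (-0.029 to 0.097) for diet in FAAH S268D, Sds for genotype on NASH-AA (-0.178 to 0.012), Cps1 (-0.027 to 0.260), Hal (-0.109 to 0.155) and Gls2 (-0.189 to 0.005) for the interaction, and Sds for average diet (-0.024 to 0.106), none of them past the threshold; Cyp2f2 stayed at -0.118 to -0.016 for average diet.

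The replicate number was not used as a pairing in the main fit. Same-numbered libraries deviated together (correlation over 0.1) in 3 and 2 of 8 pairs for diet in WT and in FAAH S268D. For genotype on NASH and on NASH-AA it was 3 and 1 of 8 pairs. In the same order, 6, 2, 5 and 2 of 16 libraries correlated best with their own number. These correlations cannot show whether the numbers stand for a pairing. With the replicate block, all genes passing for genotype on NASH numbered 961, against 1369, and for diet in WT 17, against 657. Total count only moved the median log2 fold change of all genes by -0.142 for genotype on NASH and -0.121 for diet in WT, and the share of calls that were higher to 6.76% and 7.38%, against 31.5% and 32.7%. Fitting 2 groups alone gives no value for the interaction or the averages. Depth limits Nags most, at 203 counts in the shallowest library.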
